A study of Mus musculus with 6 samples.

Results

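The BBSome, the transition zone and the ciliary membrane together form the gate and the membrane traffic system of the primary cilium. They were represented by 38 genes chosen by name, and all 38 were among the 23622 genes of the deposited table. Messenger RNA had been profiled in 6 primary cultures grown from the bone marrow of C57BL/6 mice aged 2 weeks, labelled bone progenitors, taken to culture generation 3 and left untreated. A control group of 3 cultures was wild type, and the other 3 were labelled Ift140-/- (cko) and are called cKO here. Ift140 encodes a subunit of the intraflagellar transport A complex, which works in traffic from the ciliary tip to the base. The libraries are numbered 2, 3 and 4 in each group and are biological replicates per the series' design text. The promoter that drives the deletion, the cells in which it acts and the mice or litters behind each culture are not stated in any source used here.

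The primary cilium is a single antenna that grows from the mother centriole of most stromal and bone-forming cells, where it takes part in Hedgehog and other signalling. The BBSome is a coat of protein subunits that the small GTPase Arl6 brings to the membrane and that moves receptors out of the cilium with intraflagellar transport. The transition zone lies at the base of the cilium, where the Meckel syndrome (MKS) and nephronophthisis (NPHP) modules link the membrane to the microtubules and limit which proteins enter. Inherited loss of these genes causes ciliopathies such as Bardet-Biedl, Joubert and Meckel syndromes.

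A promoter feature of many of these genes was the X-box, the motif bound by RFX transcription factors, which are known regulators of ciliary genes. The motif searched was GTTNCC, a spacer of 3 bases and then GNNAC, on either strand and with N for any base, in RefSeq promoters of GRCm38.p6 that run from 250 bases before to 50 after each start. It was present in 12 of the 36 listed genes with a promoter in that table (33.3%), beside 2.53% of all 27025 genes there. The shorter GTTGCC, whose matches include many of the longer ones, was present in 15 of 36 (41.7%), beside 14.1% of all genes. Of 10 spellings tried, each was more frequent among the listed genes than among all genes, and the spelling shown was taken after the counts were seen. The 8 windows that follow are those of 3 BBSome subunits and 5 transition zone genes, and were chosen after the values were seen, to show Bbs1, Ahi1 and Nphp4, whose groups did not overlap, B9d2, and 4 further examples. Each is written 5′ to 3′ on the gene's own strand, and capitals mark the match.
Bbs1: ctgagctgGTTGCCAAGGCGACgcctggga
Bbs4: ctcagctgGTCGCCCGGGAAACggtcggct
Bbs7: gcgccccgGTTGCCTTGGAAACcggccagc
Mks1: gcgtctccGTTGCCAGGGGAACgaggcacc
B9d2: aacctgctGTTGCCCCAGCAACagtcgggg
Ahi1: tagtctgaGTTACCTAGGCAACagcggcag
Nphp4: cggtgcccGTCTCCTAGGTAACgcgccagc
Tmem237: tagtcagcGTTGCCATGGCGACgcctccgg
These windows lie at chr19:4906605-4906634 (minus strand), chr9:59353464-59353493 (minus), chr3:36613489-36613518 (minus), chr11:87853183-87853212 (plus), chr7:25680788-25680817 (plus), chr10:20952560-20952589 (plus), chr4:152477903-152477932 (plus) and chr1:59120102-59120131 (minus). In Bbs4 and Nphp4 the motif reads on the opposite strand. The middle of the match lay from 224 bases before the start, in Nphp4, to 43 bases after it, in Tctn1, and was upstream of the start in 5 of the 12 genes. The others with a match were Tctn1, Tctn2, Tmem216 and Tmem231. A match of letters is not evidence of binding.

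The libraries held 16489013 to 28944431 reads recovered from the FPKM values, with cKO replicate 2 the shallowest and cKO replicate 4 the deepest. FPKM is the number of reads scaled by gene length and library size. Ift140 itself was at 3.11, 2.75 and 3.05 FPKM in control libraries 2, 3 and 4 and at 1.72, 1.74 and 1.90 in those of cKO, so it was lower in each cKO library but not absent (log2 fold change -0.51, SE 0.070, limma adjusted p = 0.0138). Its adjusted p by limma was 0.0721 without control replicate 4 and 0.0599 without cKO replicate 3. Xist, which silences an X chromosome in female cells, had 0.0732 ± 0.0401 FPKM in the control libraries and 38.2 ± 1.85 in the cKO libraries (SD, n = 3). The 4 Y-linked genes examined were all lower in cKO by limma. Of these, Eif2s3y, Kdm5d and Uty had 0 recovered reads in every cKO library and Ddx3y had 0, 1 and 0, against 361 to 1878 in controls. The controls thus had a male pattern and the cKO libraries a female one. Genotype and this sex pattern therefore cannot be told apart in any comparison here, although none of the 38 genes lies on X, on Y or on chromosome 17, which carries Ift140. Summed over 11 stromal and osteoblast markers the level was 4382 to 4872 FPKM in controls and 3581 to 4955 in cKO, with Lepr under 1 FPKM in every library. Most of that sum was Col1a1 (means 3029 FPKM in controls and 2623 in cKO) and Col1a2 (1058 and 785). Of the 10 tested, 6 had a positive and 4 a negative log2 fold change. The 10 macrophage markers summed to 1858 to 2111 FPKM in controls and 2099 to 2896 in cKO, so the cultures held macrophage RNA beside stromal RNA. Most of the macrophage sum was Lyz2 (means 1314 and 1552). These sums therefore say little of the other markers. The 7 endothelial markers summed to 22.1 to 28.7 and 16.7 to 19.8 FPKM. The 4 lymphocyte markers in the table summed to at most 0.706 FPKM and the 2 erythroid markers to at most 0.124. The part of these markers in the values of the ciliary genes was not tested. In such bulk cultures fewer cells of a type and less RNA per cell cannot be told apart.

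All 38 genes were detected in every library. Their mean levels ran from 0.740 FPKM for Bbs10 to 27.4 FPKM for Arl3, with a median of 2.65 FPKM beside 6.03 for the 13326 tested genes. By deposited FPKM only Arl3, Rab8a, B9d2, Cep164 and Inpp5e were above that median of all tested genes, and 5 of the 38 were under 1 FPKM. Tested genes were those with a mean of at least 0.5 FPKM, a filter that all 38 passed. Levels of different genes rest on the gene lengths behind the FPKM, which equalled the exon unions of the GENCODE vM21 annotation for 24 of the 38 genes. For the other 14 the length is known only as the shortest one that gives whole reads or a multiple of it. For Arl3 that shortest length was 822 bases, against an exon union of 2490. If the shortest length was the one used, its mean level on the exon union would be 9.03 rather than 27.4 FPKM. In the same way Cep164 would be at 4.37 rather than 7.30 FPKM, under the deposited median of 6.03. The ratio between groups for 1 gene does not depend on its length, while the log2(FPKM + 1) scale depends on it slightly.

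**Figure D1:**
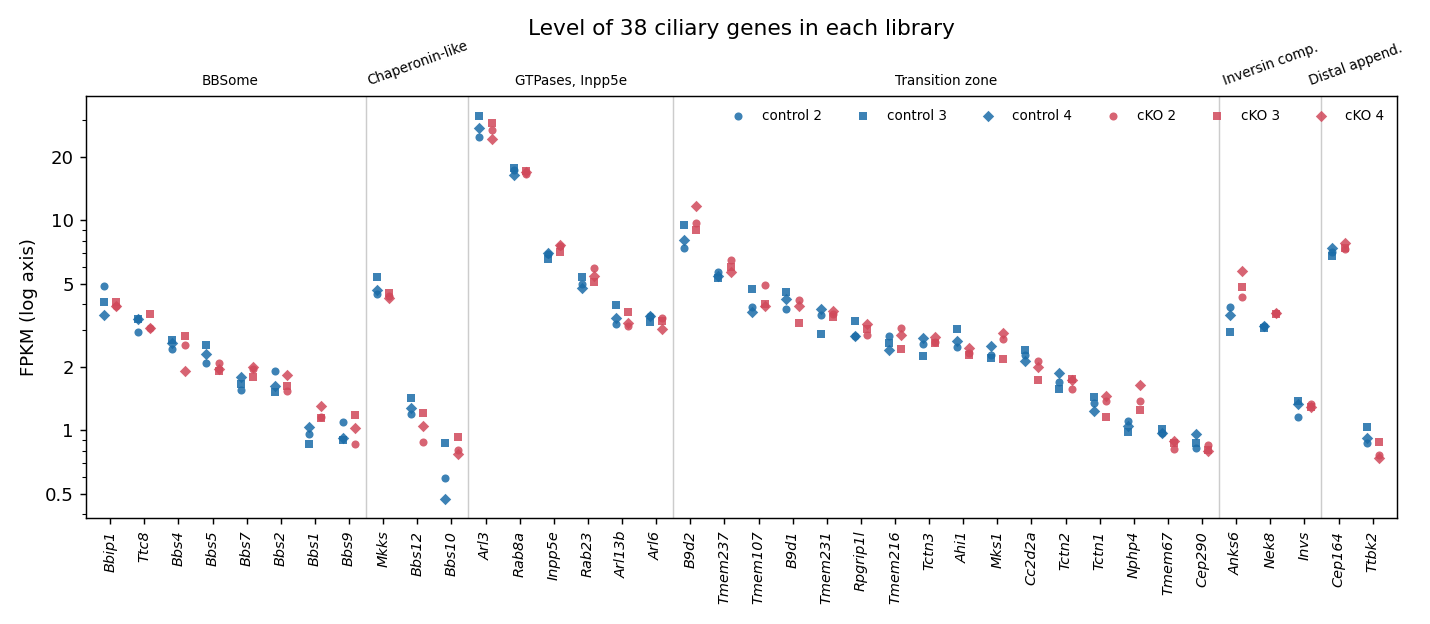
Level of each of the 38 genes in FPKM on a log axis, with a point for each library, controls in blue and cKO in red, and symbols for replicates 2, 3 and 4; genes are grouped by role and ordered by level. Blue and red points lie over each other for 31 genes, and Anks6, Nek8, Nphp4 and Bbs1 are among the 7 whose groups are apart.

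None of the 38 genes passed the test between cKO and control, in either direction, at an adjusted p of 0.05. Over all tested genes 7.61% passed, made up of 5.04% higher and 2.57% lower in cKO (limma on log2(FPKM + 1), Benjamini-Hochberg adjustment over the 13326 genes). At an adjusted p of 0.1 only Anks6 passed, beside 16.8% of all genes. At an unadjusted p under 0.05 there were 3 of 38 (7.89%), Anks6, Nek8 and Nphp4, beside 28.8% of all tested genes. The 3 control and 3 cKO values did not overlap for 7 of 38 (18.4%), namely Bbs1, Inpp5e, Tmem67, Ahi1, Nphp4, Anks6 and Nek8, beside 35.7% of all tested genes.

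Differences were small in both directions. The log2 fold change was positive for 19 genes and negative for 19, with a range of -0.17 to 0.42 and a median of 0.0079 beside -0.0011 for all tested genes. Its median size regardless of sign was 0.084, beside 0.13 for all tested genes, and its median standard error was 0.080 beside 0.087. The log2(FPKM + 1) scale understates changes of genes at low levels. The 38 had a median of 2.65 FPKM beside 6.03 for all tested genes, so these median sizes and errors are not directly comparable. As a ratio of mean FPKM the 38 genes ran from 0.801 to 1.44, and for 32 of the 38 the means were within 1.2-fold of each other. The exceptions were Bbs1, Bbs10, B9d2, Nphp4 and Anks6, with higher means in cKO, and Bbs12, with a lower one, which is 15.8% of the list beside 32.9% of all tested genes. By limma's voom on the recovered reads, the 95% interval of the fold change lay within 1.5-fold either way for 32 genes and within 2-fold for 37, the exception being Bbs10 at 0.853 to 2.01. Summed over all 38 genes the level was 147, 158 and 149 FPKM in controls 2, 3 and 4 and 155, 154 and 155 in cKO, and the groups overlapped.

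**Figure D2:**
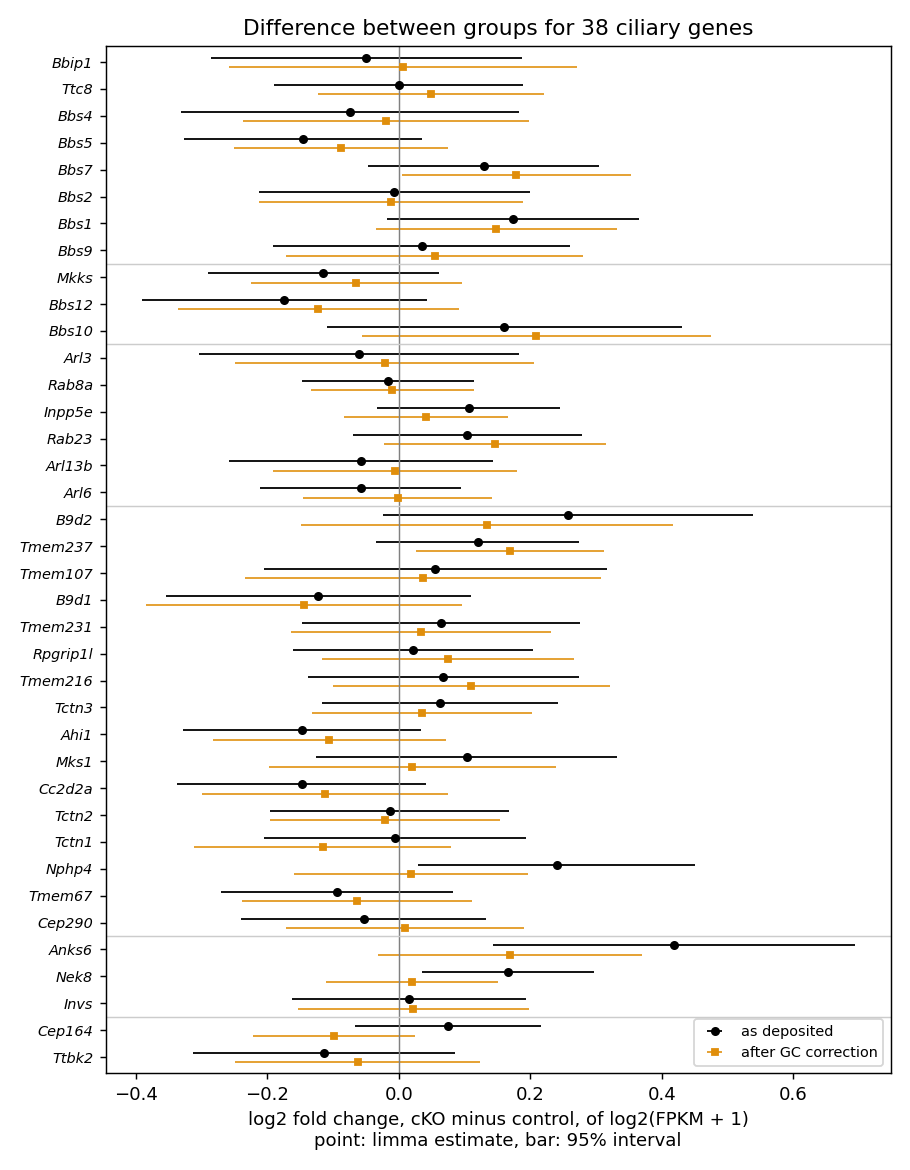
Log2 fold change of the 38 genes, cKO minus control, on the log2(FPKM + 1) scale, with points for limma's estimate and bars for its 95% interval; black is as deposited and orange after the trend with GC content was removed within each library. The black bars of Nphp4, Anks6 and Nek8 do not reach 0, while their orange points lie at 0.019, 0.17 and 0.020.

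The BBSome subunits were expressed at low and similar levels in both groups, and none passed the test. Their summed level was 17.9, 17.7 and 17.3 FPKM in the controls and 17.1, 18.1 and 17.1 in cKO, which overlap. Bbs1, the subunit that binds Arl6, stood at 0.960, 0.863 and 1.04 FPKM in the controls and 1.16, 1.15 and 1.31 in cKO. Every cKO library was above every control library, but the difference did not pass (log2 fold change 0.17, SE 0.080, limma adjusted p = 0.207). Bbs2, Bbs7 and Bbs9 are beta-propeller subunits that build the core of the complex. For Bbs2 the control values were 1.91, 1.52 and 1.63 FPKM and the cKO values 1.55, 1.63 and 1.84. Bbs7 had 1.56, 1.66 and 1.80 FPKM in the controls and 1.97, 1.79 and 2.01 in cKO, a log2 fold change of 0.13. Bbs9 had 1.097, 0.905 and 0.918 FPKM in the controls and 0.858, 1.19 and 1.03 in cKO. The groups overlapped for all 3 core subunits.

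Bbs4 and Ttc8 are built of tetratricopeptide repeats, and Bbs5 binds phosphoinositides of the membrane. Bbs4 was at 2.44, 2.70 and 2.61 FPKM in the controls and at 2.54, 2.81 and 1.92 in cKO. Its lowest value, in cKO replicate 4, set the sign of its difference, which was -0.074 with that library and 0.037 without it. Levels of Ttc8 were 2.94, 3.39 and 3.38 FPKM in the controls and 3.07, 3.57 and 3.07 in cKO, with a log2 fold change of -4.0e-05 (SE 0.080). Bbs5 was at 2.09, 2.54 and 2.32 FPKM in the controls and 2.09, 1.93 and 1.97 in cKO, and the highest cKO value met the lowest control value (log2 fold change -0.15, limma adjusted p = 0.260). Bbip1, the smallest subunit and one needed for assembly, had 4.88, 4.08 and 3.54 FPKM in the controls and 3.91, 4.08 and 3.92 in cKO, the cKO values lying inside the control range. By deposited FPKM the order of levels was Bbip1, Ttc8, Bbs4, Bbs5, Bbs7, Bbs2, Bbs1 and Bbs9, where Bbs4 and Bbs5, Bbs7 and Bbs2, and Bbs1 and Bbs9 overlapped in both groups, and Bbs5 and Bbs7 overlapped in cKO only. Of these genes Bbs1, Bbs2, Bbs4, Ttc8 and Bbip1 have no settled length, so their places in the order may depend on it.

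The chaperonin-like proteins Mkks, Bbs10 and Bbs12 help to assemble the BBSome, and their groups overlapped for each gene. Mkks, the most abundant, was at 4.47, 5.37 and 4.68 FPKM in the controls and 4.37, 4.53 and 4.26 in cKO (log2 fold change -0.11, limma adjusted p = 0.352). Bbs12 had 1.201, 1.43 and 1.28 FPKM in the controls and 0.884, 1.21 and 1.05 in cKO, the lowest log2 fold change of the 38 at -0.17 (SE 0.091, limma adjusted p = 0.259). Bbs10 was the least abundant of the 38, at 0.595, 0.875 and 0.472 FPKM in the controls and 0.803, 0.926 and 0.771 in cKO. Its values rest on 33, 52 and 27 reads in controls and 38, 46 and 60 in cKO, so a coefficient of variation of 15.3% is due from counting alone. The observed coefficient of variation of Bbs10 was 31.9% among controls, above that value, and 9.83% among cKO, below it. Coefficients over 3 libraries are imprecise, and neither was tested against counting error. Its ratio of mean FPKM was 1.29, and the difference did not pass (limma adjusted p = 0.391). The log2 fold change of 0.16 (SE 0.11) is on the log2(FPKM + 1) scale, which understates that ratio at so low a level. Antisense and overlapping genes share some of these exons, and 29.2% of the annotated exonic bases of Mkks lie under another gene model of the same strand.

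The small GTPases and the phosphatase Inpp5e were the most abundant group, and none of the 6 genes passed. Arl3, which releases lipid-anchored cargo inside the cilium, had 24.9, 31.5 and 27.5 FPKM in the controls and 27.0, 28.9 and 24.3 in cKO (log2 fold change -0.060, SE 0.10). Rab8a, which brings vesicles to the ciliary base, varied little, at 17.3, 17.8 and 16.4 FPKM in the controls and 16.5, 17.2 and 17.02 in cKO. Its log2 fold change was -0.016 with a 95% interval of -0.15 to 0.11. Arl6, which recruits the BBSome, was at 3.50, 3.27 and 3.51 FPKM in the controls and 3.41, 3.30 and 3.05 in cKO (log2 fold change -0.057). Arl13b, the exchange factor of Arl3, stood at 3.23, 3.94 and 3.45 FPKM in the controls and 3.16, 3.67 and 3.25 in cKO (log2 fold change -0.057). Controls and cKO overlapped for these 4 genes.

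Inpp5e, which removes a phosphate from phosphoinositides of the ciliary membrane, had 6.95, 6.54 and 6.99 FPKM in the controls and 7.57, 7.06 and 7.65 in cKO. The highest control and the lowest cKO value were close but did not overlap (log2 fold change 0.11, SE 0.059, limma adjusted p = 0.281). Of its exonic bases 20.3% are shared with Pmpca on the opposite strand, and without a stated strand setting reads of the shared bases cannot be told apart. Rab23, a negative regulator of Hedgehog signalling, was at 4.98, 5.36 and 4.77 FPKM in the controls and 5.95, 5.09 and 5.44 in cKO, which overlap (log2 fold change 0.10, limma adjusted p = 0.389). The order of deposited levels was Arl3, Rab8a, Inpp5e, Rab23, Arl13b and Arl6, of which only Arl13b and Arl6 overlapped, and the place of Arl3 rests on its unsettled length.

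The MKS module of the transition zone held 15 of the genes, and none passed the test in either direction. Its summed level was 44.4, 47.7 and 45.5 FPKM in controls and 49.3, 44.5 and 50.1 in cKO, and cKO replicate 3 lay among the controls. Log2 fold changes ran from -0.15 to 0.26, with 8 positive and 7 negative and a median of 0.022. The B9-domain proteins Mks1, B9d1 and B9d2 form a subcomplex of the module. B9d2 was its most abundant member, at 7.37, 9.50 and 8.05 FPKM in the controls and 9.77, 8.96 and 11.7 in cKO. Control replicate 3 exceeded cKO replicate 3, so the groups overlapped (log2 fold change 0.26, SE 0.12, limma adjusted p = 0.206). Mks1 had 2.29, 2.21 and 2.54 FPKM in the controls and 2.72, 2.18 and 2.92 in cKO (log2 fold change 0.10). For B9d1 the controls had 3.80, 4.57 and 4.20 FPKM and the cKO libraries 4.17, 3.24 and 3.93 (log2 fold change -0.12). The values of cKO replicate 3 were the lowest cKO values of all 3 genes.

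The tectonics Tctn1, Tctn2 and Tctn3, which bind the membrane proteins of the zone, overlapped between the groups. Tctn1 was at 1.35, 1.44 and 1.24 FPKM in the controls and 1.38, 1.16 and 1.46 in cKO. Values of Tctn2 were 1.71, 1.57 and 1.88 FPKM in the controls and 1.58, 1.75 and 1.74 in cKO. Those of Tctn3 were 2.58, 2.25 and 2.75 FPKM in the controls and 2.65, 2.61 and 2.78 in cKO. Their log2 fold changes were -0.0056, -0.013 and 0.063, each smaller than its standard error of 0.084, 0.076 and 0.075. Of the exonic bases of Tctn1, 19.0% are shared with Hvcn1 on the opposite strand.

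Among the membrane-spanning proteins of the zone, Tmem67 was lower in every cKO library and the others overlapped. Tmem67, or meckelin, a receptor-like protein, was at 0.974, 1.011 and 0.976 FPKM in the controls and 0.819, 0.873 and 0.895 in cKO (log2 fold change -0.094, SE 0.074, limma adjusted p = 0.446). Tmem237 was the most abundant of them, at 5.69, 5.31 and 5.44 FPKM in the controls and 6.48, 5.98 and 5.68 in cKO (log2 fold change 0.12, limma adjusted p = 0.273). Its highest control value was just above its lowest cKO value. Tmem107 had 3.88, 4.74 and 3.66 FPKM in the controls and 4.93, 4.01 and 3.93 in cKO. For Tmem216 the values were 2.81, 2.60 and 2.41 FPKM in the controls and 3.06, 2.44 and 2.86 in cKO. Tmem231 was at 3.54, 2.89 and 3.77 FPKM in the controls and 3.59, 3.46 and 3.71 in cKO. Log2 fold changes of the last 3 genes were 0.056, 0.068 and 0.065, and their groups overlapped widely.

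The scaffold proteins of the zone gave small negative or near-zero differences. Ahi1, or jouberin, which is mutated in Joubert syndrome, was at 2.49, 3.03 and 2.67 FPKM in the controls and 2.33, 2.30 and 2.46 in cKO. All cKO libraries were below all controls, and the difference did not pass (log2 fold change -0.15, SE 0.076, limma adjusted p = 0.254). Cc2d2a, a coiled-coil protein of the base of the zone, had 2.28, 2.42 and 2.14 FPKM in the controls and 2.15, 1.74 and 2.01 in cKO, with 1 overlapping value (log2 fold change -0.15, SE 0.080, limma adjusted p = 0.274). Cep290, which links the membrane to the microtubules, was among the lowest, at 0.824, 0.868 and 0.962 FPKM in the controls and 0.851, 0.803 and 0.795 in cKO. Rpgrip1l, on which assembly of the zone depends, was at 2.82, 3.31 and 2.82 FPKM in the controls and 2.85, 3.05 and 3.22 in cKO. For Cep290 and Rpgrip1l the log2 fold changes were -0.053 and 0.022, and the groups overlapped. Within the MKS module B9d2 and Tmem237 stood clear above the rest in both groups, and Tmem67 and Cep290 were lowest, while most neighbours between them overlapped in at least 1 group.

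The 3 genes with an unadjusted limma p under 0.05 belonged to the NPHP module, here Nphp4 alone, and to the inversin compartment. That compartment is the stretch of the cilium just beyond the transition zone. The 3 inversin compartment genes summed to 8.17, 7.37 and 8.01 FPKM in controls and 9.29, 9.70 and 10.7 in cKO. Every cKO sum was above every control sum, and the member that did most of this was Anks6. Anks6, an ankyrin-repeat protein that binds and activates the kinase Nek8, had 3.86, 2.94 and 3.56 FPKM in the controls and 4.31, 4.84 and 5.73 in cKO. Means were 3.45 ± 0.472 and 4.96 ± 0.714 FPKM (SD, n = 3 each), a ratio of 1.44, from 408, 332 and 387 reads in controls and 388, 457 and 848 in cKO. The lowest cKO value was above the highest control value, and cKO replicate 4 was highest. The log2 fold change was 0.42 (SE 0.12, 95% interval 0.14 to 0.69) with a limma adjusted p of 0.0733, which ranged from 0.0239 to 0.315 over 21 alternative fits. With voom on the recovered reads, under which 11.8% of all tested genes passed, Anks6 was called at 1.47-fold (95% interval 1.21 to 1.78, limma voom adjusted p = 0.0239). After correction for GC content its log2 fold change was 0.17 (limma adjusted p = 0.263). The gene (ENSMUSG00000066191) lies at chr4:47015669-47057427 on the minus strand of GRCm38, with up to 17 exons and a GC content of 60.1%.

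Nek8, the kinase partner of Anks6, had little spread within groups. It had 3.14, 3.06 and 3.13 FPKM in the controls and 3.63, 3.57 and 3.64 in cKO, means of 3.11 ± 0.0436 and 3.61 ± 0.0399 FPKM (SD, n = 3 each). The groups did not overlap, but the coefficients of variation of 1.40% and 1.104% were below the 5.21% due from counting alone. The test, which borrows its spread from all genes, did not pass (log2 fold change 0.17, SE 0.055, limma adjusted p = 0.110). Weighting the libraries by quality, under which 23.6% of all tested genes passed, called both Nek8 (limma adjusted p = 0.0497) and Anks6 (limma adjusted p = 0.0314), and these were the only calls of a listed gene in any refit at 0.05 besides that of Anks6 by voom. After GC correction the log2 fold change of Nek8 was 0.020 (limma adjusted p = 0.854). Nek8 lies at chr11:78166106-78176675 on the minus strand, with a GC content of 56.8%. Invs, or inversin, which gives the compartment its name, was at 1.16, 1.37 and 1.33 FPKM in the controls and 1.34, 1.30 and 1.30 in cKO, with the cKO values inside the control range (log2 fold change 0.016, SE 0.075).

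Nphp4, or nephrocystin-4, a scaffold of the NPHP module, had 1.11, 0.981 and 1.05 FPKM in the controls and 1.38, 1.247 and 1.64 in cKO. All cKO libraries were above all controls, with cKO replicate 4 highest as for Anks6. Its means were 1.05 ± 0.0635 and 1.42 ± 0.202 FPKM (SD, n = 3 each), with a log2 fold change of 0.24 (SE 0.089, limma adjusted p = 0.137, and 0.0595 by voom). After GC correction the value was 0.019 (limma adjusted p = 0.906). The gene, at chr4:152476706-152563183 on the plus strand, has a GC content of 59.3% and carries the X-box match that lay farthest from a start as RefSeq places it.

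The distal appendages anchor the mother centriole to the membrane before the cilium grows. Cep164, an appendage protein, was at 7.11, 6.75 and 7.40 FPKM in the controls and 7.31, 7.40 and 7.84 in cKO (log2 fold change 0.075, SE 0.059), and its sign turned to -0.099 after GC correction. Ttbk2, the kinase that Cep164 recruits to start ciliary growth, had 0.870, 1.04 and 0.920 FPKM in the controls and 0.765, 0.884 and 0.741 in cKO (log2 fold change -0.11, SE 0.084, limma adjusted p = 0.412). The groups overlapped for both genes, and 29.9% of the exonic bases of Ttbk2 are shared with Cdan1 on the same strand.

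Across the 38 genes the log2 fold change was higher for genes of higher GC content. As a description over these genes, which share the same 6 libraries, Pearson's r was 0.65 and Spearman's rho 0.58 (n = 38), beside 0.32 and 0.38 over the 13293 tested genes with a GC value. After each library was corrected for its own trend with GC content, r was 0.086 and rho 0.11 over the 38. The trend was fitted to these same tested genes, so values near 0 follow in part from the construction. Any group difference that tracks GC content is removed with it, whatever its source, and the source was not tested. The 5 genes of at least 56% GC, Anks6, Nphp4, Cep164, Nek8 and B9d2, had a median log2 fold change of 0.24, beside 0.19 for the 2432 tested genes of that class. The 7 genes of 40 to 44% GC had a median of -0.057, beside -0.077 for the 1936 tested genes. After the correction the 38 genes ran from -0.14 to 0.21, the lowest limma adjusted p was 0.145, and 4 genes changed sign. Under that correction 5.46% of all tested genes passed.

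**Figure D3:**
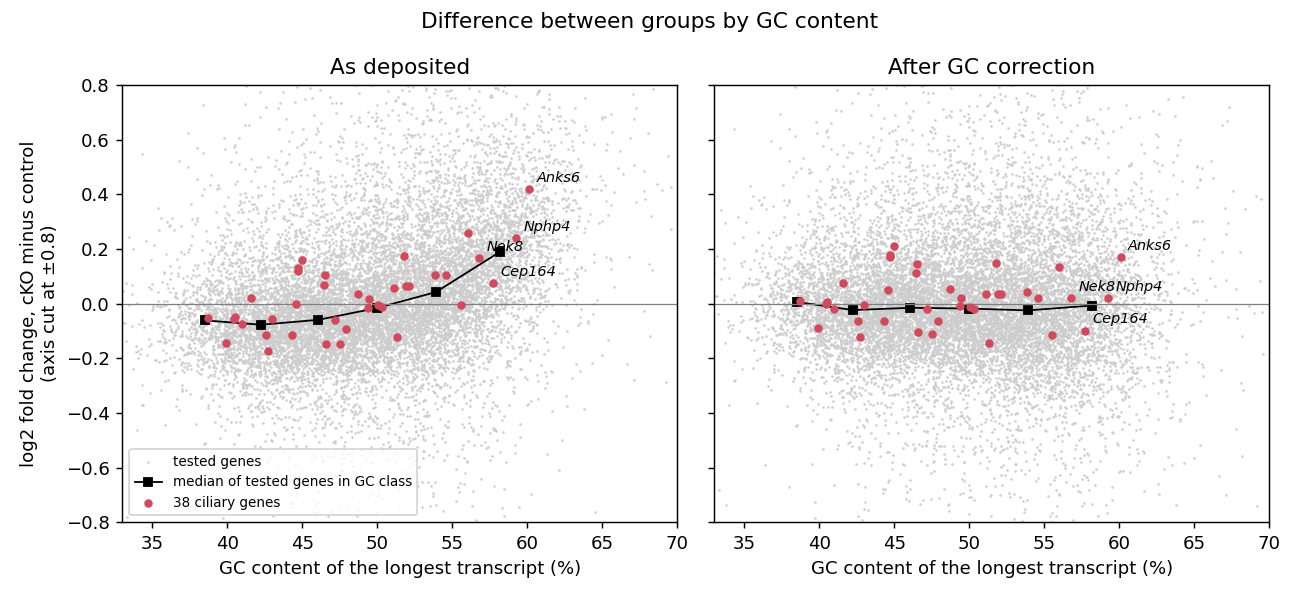
Log2 fold change, cKO minus control, against the GC content of each gene's longest transcript in percent, as deposited on the left and after GC correction on the right; grey points are tested genes, red points the 38 ciliary genes and black squares the medians of all tested genes in GC classes. On the left the medians are -0.062, -0.077, -0.059, -0.016, 0.042 and 0.19 from the lowest GC class to the highest. The red points there are higher at higher GC. On the right the medians are flat by construction, as the trend removed was fitted to the same tested genes.

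The 12 genes with an X-box match had a median log2 fold change of 0.086, and the 24 with a promoter and no match had -0.011. None of either set passed the test. Both medians are before GC correction, and the sets were not matched for GC content. Anks6 and Tmem67, with log2 fold changes of 0.42 and -0.094, had no promoter in the RefSeq set and are in neither. These are descriptions, and the match is not a measure of RFX binding in these cells.

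The spread between replicates was close to the counting error for these weakly expressed genes. The median coefficient of variation was 8.95% among controls and 7.69% among cKO, while the median expected from read numbers alone was 6.87%, with a lowest value of 2.44% and 15.3% for Bbs10. A gene had 27 to 2252 reads in a library, with a median of 206.5. Coefficients over 3 libraries are themselves imprecise. Counting error covers the sampling of reads and not the spread between cultures.

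**Figure D4:**
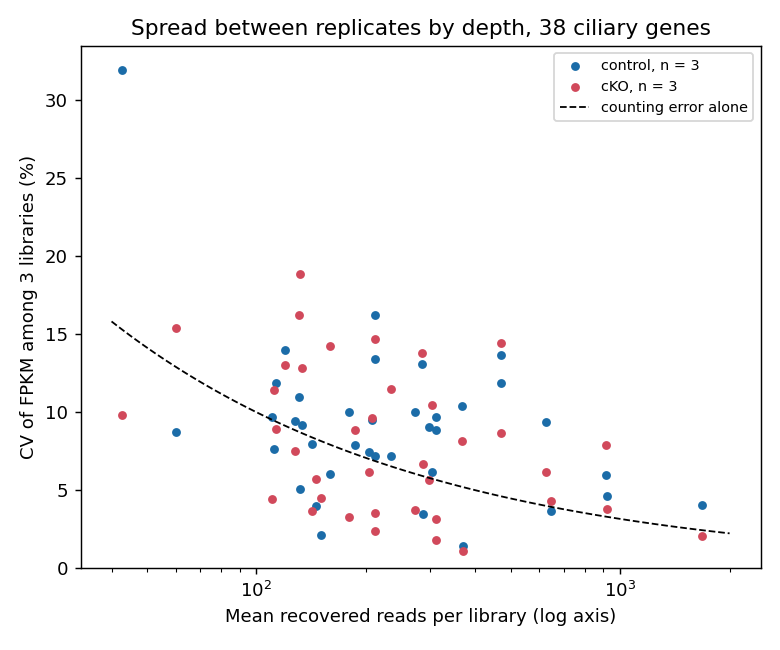
Coefficient of variation of FPKM in percent among the 3 control (blue) and the 3 cKO (red) libraries for each of the 38 genes, against its mean number of recovered reads per library on a log axis; the dashed line is the value from counting error alone. Points scatter on both sides of the line, and the control value of Bbs10, the leftmost gene, is the highest.

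Other genes of the same compartments, from 5 lists by function, showed 1 rise and 1 fall among 54 tested of 56 in the table. Over all tested genes 7.61% passed. At an unadjusted limma p under 0.05 there were 12 of 54 (22.2%), beside 28.8% of all tested genes. Rab3ip (Rabin8), the exchange factor that activates Rab8, was at 4.06, 3.84 and 4.22 FPKM in the controls and 3.25, 2.68 and 3.04 in cKO. It fell in all cKO libraries without overlap (log2 fold change -0.34, SE 0.075, limma adjusted p = 0.0442, and 0.0473 after GC correction), while for Rab8a the value was -0.016. Rab34, a GTPase needed for early steps of ciliary growth in many cells, was at 44.8, 44.6 and 46.2 FPKM in the controls and 56.2, 58.1 and 68.9 in cKO. It rose without overlap (log2 fold change 0.42, SE 0.084, limma adjusted p = 0.0343), and after GC correction its value was 0.19 (limma adjusted p = 0.127). Each call was made in 12 of 21 alternative fits, and most of the losses came from leaving out a library. That of Rab3ip was lost without any single library (limma adjusted p from 0.0533 without control replicate 3 to 0.155 without control replicate 4). That of Rab34 was lost without any library but cKO replicate 4 (limma adjusted p from 0.0584 without cKO replicate 2 to 0.118 without control replicate 4).

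The remaining lists gave no call. Of 17 tested transition zone genes outside the 38, 4 had a positive and 13 a negative log2 fold change, and the smallest unadjusted p values were those of the basal body and transition zone protein Dzip1 and of Fam92a, a partner of the basal body protein Cby1. Dzip1 had 5.12, 4.91 and 4.75 FPKM in the controls and 5.75, 5.69 and 5.93 in cKO (log2 fold change 0.20, limma adjusted p = 0.0785). Fam92a had 3.52, 3.77 and 3.94 FPKM in the controls and 3.23, 3.22 and 3.21 in cKO (log2 fold change -0.17, limma adjusted p = 0.134). Neither gene overlapped between groups. Among the 4 tested CPLANE genes, planar polarity effectors of ciliary growth, Fuz and Cplane1 had log2 fold changes of 0.26 (limma adjusted p = 0.153) and -0.14 (limma adjusted p = 0.273). Of 14 tested distal appendage and centriole genes, the appendage protein Lrrc45 was at 0.23 (limma adjusted p = 0.0796) and Cep120, a protein of centriole growth, at -0.18 (limma adjusted p = 0.178). The transition zone genes Rpgr and Rpgrip1 were under the filter on low values.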

How the data were processed

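Poly-A messenger RNA from Trizol extracts was made into NEBNext Ultra libraries from bone marrow cultures, per the labels' protocols. FPKM values were deposited by the authors in a table of 6 libraries. The submitters' processing notes list HTSeq 0.6.0 and DESeq2 1.10.1 without saying what each did. No source used here states the aligner, the genome build, the annotation or whether counting used strand.

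GENCODE vM21 (GRCm38) gave symbols, coordinates, exons and GC content; 23510 identifiers had a symbol and 112 did not. Promoters were from RefSeq (GRCm38.p6). Because FPKM of a gene moves in steps of 1 read, read numbers could be recovered. Of 23427 genes above 0, 18210 gave whole reads (within 1e-06) in all libraries at their annotated length. For the other 5217 the shortest length that gives whole reads was taken, so that wholeness (100.0% of genes in all) follows from that choice for them, and their read numbers hold up to a common factor. The library denominators behind the FPKM matched median-ratio size factors times the geometric mean of the read sums, with quotients of 1.004 to 1.008, so that the deposited values already carry such a scaling. Counting coefficients of variation cover the sampling of reads only, while intervals from voom also hold the spread between libraries.

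Genes with a mean FPKM of 0.5 or more, 13326 in all, were tested on log2(FPKM + 1) with limma 3.58.1 in R 4.3.3, a moderated test with an intensity trend, 2-sided, over 3 against 3 libraries with no covariate, Benjamini-Hochberg adjustment over all tested genes and a threshold of 0.05. Log2 fold changes are on that scale, which understates changes of genes near 1 FPKM. All adjusted p values come from limma. The procedure was tested on simulated reads. GC correction was a loess fit of span 0.5 in each library. Python 3.11.15, numpy 2.4.6, pandas 2.3.3 and matplotlib 3.10.9 made the tables and plots.

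The 38 genes and the lists were chosen with earlier results of these data known. All 38 are described, and other ciliary genes were named where they passed (up to 4 a list) or, with none passing, as the 2 smallest unadjusted p values. Lists of other ciliary, RFX and multicilia, motile cilium, proliferation, sex-linked and cell type marker genes were read from the same fit. The alternatives tried were a smaller pseudocount, no or a stricter filter, 3 other scalings, 2 other priors, library weights, the replicate number as a block, each library left out, voom on recovered reads, GC correction, autosomes only and another threshold.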

Additional observations from a re-analysis of the deposited data

How the results depend on the processing

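Over 21 alternative fits the 38 genes had 793 refits, of which 3 passed the threshold, all upward and in Anks6 or Nek8, and 45 had the other sign, in 17 genes. The number of the 38 higher in cKO was 0 as reported, 2 with library weights, 1 by voom and 1 at an adjusted p of 0.1, and none was lower in any fit. Leaving out a library moved Bbs4 from -0.16 to 0.037, the positive value without cKO replicate 4. Signs also turned for Bbip1 (0.059) and Tmem231 (-0.028) with library weights, and for Cep164 under GC correction (-0.099, also with the replicate block). Rfx1 turned likewise under GC correction (-0.11, also with the block). Over all genes 672 were higher and 342 lower. These counts were 327 and 184 with no filter on low values, 1765 and 1378 with library weights and 1346 and 891 at an adjusted p of 0.1. Quantile normalization gave 609 and 560, which lowers the share of rises. Voom gave 1105 higher, and GC correction 347 higher and 380 lower. Leaving out a library gave 45 to 626 higher and 26 to 374 lower, lowest without control replicate 4 (45 and 26), then without cKO replicate 3 (129 and 46), cKO replicate 2 (282 and 101) and cKO replicate 4 (308 and 136). Other ciliary genes, 1 higher and 1 lower as reported, numbered 0 and 0 with no filter, 6 and 4 with library weights, and 4 and 2 at an adjusted p of 0.1. Those higher were 2 by voom and by read-total scaling, an alternative chosen after seeing the data, and 0 under GC correction. Leaving out a library gave 0 to 1 higher and 0 lower.

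Libraries of the same number gave no sign of pairing, as their deviations from the group means correlated at -0.04, -0.05 and 0.03 for replicates 2, 3 and 4. With the replicate block 42 genes were higher and 22 lower, and 3 and 7 with GC correction as well. No other ciliary gene was then called in either direction (0 with the block, 0 with both). Ift140 stayed at -0.51 with the block (limma adjusted p = 0.0633) and was -0.53 with both (0.0739). Without single libraries it ran from -0.55 to -0.48, with adjusted p of 0.0721 without control replicate 4 and 0.0599 without cKO replicate 3. Except where the construction shows it (fewer libraries, more genes tested, another threshold), the cause of these shifts was not tested. Depth limits Bbs10 and Bbs12 most, with coefficients of variation of 15.3% and 12.9% due from counting alone.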

Other observations

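The RFX factors that bind the X-box were read from the same fit. Rfx1 was the most abundant of those examined, with 8.61, 7.61 and 6.99 FPKM in controls 2, 3 and 4 and 8.22, 8.22 and 9.76 in cKO, which overlap (log2 fold change 0.16, limma adjusted p = 0.329, and -0.11 after GC correction). Rfx2 was at 0.503, 0.511 and 0.603 FPKM in the controls and 0.503, 0.678 and 0.759 in cKO (log2 fold change 0.095, limma adjusted p = 0.560). Rfx3 was at 0.193, 0.185 and 0.292 and 0.195, 0.216 and 0.221 FPKM, under the filter on low values. Foxj1, the factor that sets up motile cilia, was lower still, at 0.0567, 0.0883 and 0.0551 and 0.133, 0.0634 and 0.162 FPKM. None of the 5 tested RFX and multicilia factors passed. The 7 motile cilium genes in the table, of 12 listed, summed to 1.51 to 2.06 FPKM in controls and 1.32 to 1.4995 in cKO. The only one tested was Rsph1, a radial spoke protein, at 0.810, 1.31 and 0.745 FPKM in the controls and 0.300, 0.524 and 0.577 in cKO. Its groups did not overlap, and the difference did not pass (log2 fold change -0.41, SE 0.14, limma adjusted p = 0.120). These values rest on only 19, 33 and 18 reads in controls and 6, 11 and 19 in cKO. A coefficient of variation of 23.8% is due from counting alone.

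Primary cilia are present mainly in cells that are not dividing. The 15 proliferation genes summed to 191.9 to 225 FPKM in controls and 194.2 to 227 in cKO, and 0 of them passed by limma, with 3 at an unadjusted p under 0.05, 4 positive and 11 negative. Of the cell type markers, the endothelial gene Emcn was lower in cKO, at 3.39, 3.24 and 2.86 FPKM in the controls and 2.00, 2.26 and 1.70 in cKO (log2 fold change -0.48, limma adjusted p = 0.0323). This call was made in 12 of 21 alternative fits, over which the limma adjusted p ranged from 0.0164 to 0.0971, and all 7 endothelial markers had negative log2 fold changes. Of 10 tested stromal and osteoblast markers 1 was higher and 1 lower in cKO. Twist1 was the higher, with a ratio of mean FPKM of 1.97 (log2 fold change 0.94, limma adjusted p = 0.0148). Prrx1 was the lower, with a ratio of 0.778 (log2 fold change -0.35, limma adjusted p = 0.0313). These calls were made in 18 and 12 of 21 alternative fits. After GC correction their limma adjusted p values were 0.0258 and 0.0616. Of 10 macrophage markers 0 passed, with 9 positive and 2 at an unadjusted p under 0.05.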
